A study of Mus musculus with 6 samples.

Results

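The genes described here encode enzymes of the mevalonate pathway and proteins that control it: Hmgcs1, Mvk, Mvd, Idi1, Fdps, Fdft1, Insig1 and Srebf2. They were taken by name, as all probes of the array whose platform symbol or synonym was one of these 8 genes. The annotation used here named 11 probes for 6 of the 8 genes, of 45281 probes in all, and no probe for Hmgcs1 or Fdft1, which are therefore not analysed here. Of these 11 probes, 9 were above background and belonged to 5 genes (Mvd, Idi1, Fdps, Insig1 and Srebf2), out of 11346 genes tested.

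RNA came from livers of newborn Igf2 knockout (Igf2 KO) mice, on 3 arrays, and of newborn wild-type (WT) mice, on 3 arrays, all of a mixed 129 and c57Bl/6 background. Each was hybridised to an Illumina BeadChip, which reads a short stretch of each transcript. Igf2 encodes a growth factor of fetal life, abundant in fetal liver. The labels do not say how the allele was made, in which cells it is lost, or whether an array holds 1 pup or several, so the p-values cover the spread between these 6 arrays and nothing wider, and some of that spread may be technical.

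The mevalonate pathway joins acetyl units into mevalonate and turns it into isoprenoids, from which cholesterol, ubiquinone, dolichol and the lipid anchors of proteins are made. Its genes are switched together by SREBP-2, the transcription factor that Srebf2 encodes. When sterols are plentiful, Insig proteins hold SREBP-2 and its escort Scap in the endoplasmic reticulum. When sterols run low, SREBP-2 is released, cut by the proteases that Mbtps1 and Mbtps2 encode, and binds sterol regulatory elements in promoters, often beside sites of NF-Y and Sp1. The liver is a main site of cholesterol synthesis.

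The promoters of the 3 genes that fell are shown with that of Insig1, because SREBP-2 is known to act on promoters of this pathway. Each runs from 250 bases before to 50 bases after the RefSeq start (GRCm38.p6), 5′ to 3′ on the strand of the gene. Capitals mark matches, on either strand, to CCAAT (the NF-Y box, ATTGG on the other strand) and to TCACNCCA (an SRE-like motif). Idi1 lies at chr13:8885356-8885655 on the plus strand, Mvd at chr8:122443373-122443672 on the minus strand, Srebf2 at chr15:82147019-82147318 on the plus strand and Insig1 at chr5:28071162-28071461 on the plus strand.
Idi1: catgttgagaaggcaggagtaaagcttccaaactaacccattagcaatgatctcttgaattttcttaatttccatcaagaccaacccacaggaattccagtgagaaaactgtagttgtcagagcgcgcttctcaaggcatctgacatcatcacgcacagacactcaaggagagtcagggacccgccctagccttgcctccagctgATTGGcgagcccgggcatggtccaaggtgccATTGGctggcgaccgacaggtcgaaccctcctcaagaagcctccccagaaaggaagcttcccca
Mvd: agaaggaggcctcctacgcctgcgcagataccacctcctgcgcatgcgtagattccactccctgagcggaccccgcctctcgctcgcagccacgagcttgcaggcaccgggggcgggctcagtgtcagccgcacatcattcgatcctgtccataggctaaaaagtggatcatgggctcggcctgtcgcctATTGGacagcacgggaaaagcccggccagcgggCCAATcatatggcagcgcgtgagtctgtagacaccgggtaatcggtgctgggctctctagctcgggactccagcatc
Srebf2: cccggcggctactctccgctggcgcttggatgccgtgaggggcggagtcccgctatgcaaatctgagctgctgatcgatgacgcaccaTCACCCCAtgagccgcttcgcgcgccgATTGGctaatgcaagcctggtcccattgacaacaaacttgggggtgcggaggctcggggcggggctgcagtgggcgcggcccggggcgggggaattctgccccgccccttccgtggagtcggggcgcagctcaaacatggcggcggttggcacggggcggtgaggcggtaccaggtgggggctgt
Insig1: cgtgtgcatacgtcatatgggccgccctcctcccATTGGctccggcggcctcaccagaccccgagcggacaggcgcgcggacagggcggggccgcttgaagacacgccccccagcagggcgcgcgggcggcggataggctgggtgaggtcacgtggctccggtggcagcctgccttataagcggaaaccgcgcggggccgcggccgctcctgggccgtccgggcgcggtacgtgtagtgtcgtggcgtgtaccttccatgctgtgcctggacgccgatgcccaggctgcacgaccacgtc

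Promoters were listed for 6 of the 8 genes (not for Fdps and Fdft1), and all 6 held CCAAT, which 37.4% of 32851 mouse promoters of the same length also held. The SRE-like motif was found in 2 of the 6, Hmgcs1 and Srebf2, and in 4.36% of all promoters. In Srebf2 it started 162 bases before the RefSeq start, with a CCAAT match 135 bases before it. The Idi1 and Mvd windows each held 2 CCAAT matches and no match to TCACNCCA. GGGCGG, the GC box that Sp1 binds, was present in all 6 and in 35.7% of all promoters, and the E-box CACGTG was present in Insig1 alone among the 6 and in 7.15% of all. Matches to the 4 motifs did not overlap in these windows. They are letters in a window and do not show binding.

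**Figure D1:**
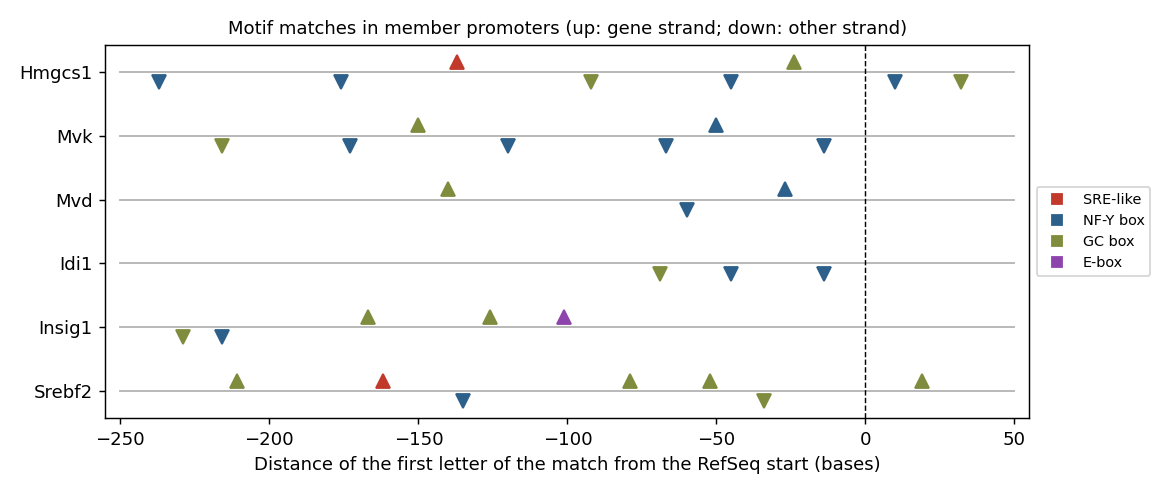
Motif matches in the 6 promoter windows, with distance from the RefSeq start in bases on the x axis and 1 row per gene. Triangles point up for the strand of the gene and down for the other strand. CCAAT (blue) occurs in every row and the SRE-like motif (red) only in Hmgcs1 and Srebf2.

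In Igf2 KO livers, 3 of the 5 genes tested were lower and 0 were higher. Idi1 fell most, to 17.6% of the mean WT signal, Mvd fell to 45.6% and Srebf2 to 73.9%, while Insig1 and Fdps did not pass at the gene level. A gene was called at an adjusted p under 0.05 in limma, with Benjamini-Hochberg adjustment over all 11346 genes. By this rule 8.49% of all genes were lower and 8.23% were higher. The median log2 fold change of the 5 genes was -0.41 (range -1.84 to -0.24), against 0.02 over all genes tested. Signals of the groups did not overlap, with the knockout lower, for 3 of the 5 genes (Mvd, Idi1 and Srebf2) and for 18.3% of all genes. Without regard to direction, 39.1% of all genes did not overlap. Igf2 itself had signals of 9337.3, 11865.8 and 9676.2 on the knockout arrays, against 19804.8, 19194.5 and 18656 on the WT arrays. It fell by 0.91 on the log2 scale (SE 0.11, limma adjusted p = 0.0022). The knockout arrays thus kept 53.6% of the WT signal, which is not a full loss of the transcript that this probe reads. Whether the probe lies inside the altered part of the gene is not given in the sources used here, and the arrays are called knockout as they are labelled.

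Before the details, 2 features of the arrays bear on every value. Lung transcripts were high on knockout arrays 1 and 2. The summed signal of 9 lung markers was 8682, 22570 and 684.6 on knockout arrays 1, 2 and 3, against 732.9, 636 and 634.9 on the WT arrays. Of these markers Sftpb, Sftpa1, Nkx2-1 and Lamp3 were not above background on knockout array 3 or on any WT array. Sftpc and Scgb1a1 were above background on all 3 knockout arrays, with 66.4 and 42.9 on knockout array 3, and on 0 WT arrays. Knockout array 3 was thus not free of lung transcripts. Sftpd, Napsa and Ager were above background on all 6 arrays. Of the 5 lung markers tested, 1, Sftpc, was called higher. Xist, the RNA of the inactive X chromosome, had signals of 1984.2, 1822.5 and 17.9 on the knockout arrays and of 1017.5, 4.1 and 5.4 on the WT arrays. Of 9 hepatocyte markers, 0 changed, and their summed signal was 121100 to 123200 in the knockout and 124300 to 126700 in WT. Erythroid markers summed to 63540 to 68070 in the knockout and 60550 to 60770 in WT, with 1 of 6 tested higher (Slc4a1). Macrophage markers summed to 3361 to 3651 in the knockout and 3512 to 4794 in WT, with 0 of 5 changed. Endothelial markers summed to 3752 to 4376 in the knockout and 2964 to 3529 in WT, with 1 of 5 higher (Lyve1). Stromal markers summed to 12900 to 13220 in the knockout and 11350 to 12760 in WT, with 0 of 6 changed. Exocrine pancreas markers summed to 13190 to 14240 in the knockout and 9786 to 11000 in WT, with 1 of 3 tested, Reg1, higher. Most of the sum was Amy2a5 (11765.6 to 12858.1 in the knockout and 9438.5 to 10736.1 in WT), which was not called (limma adjusted p = 0.0543). Reg1 had 806, 2134.6 and 51.6 on knockout arrays 1, 2 and 3 and was above background on 0 WT arrays. Cela2a, Ctrb1, Cpa1 and Prss2 were not above background on any array. The part of these markers in the results for the sterol genes was not tested, beyond the subsets of arrays given after the genes. In bulk tissue, fewer cells of a type and less RNA per cell cannot be told apart.

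The enzymes come first, in the order in which they act. Mvk, mevalonate kinase, phosphorylates mevalonate. Its only probe had signals of 4.2, 5.8 and 4.2 on the knockout arrays, against 4, 4.6 and 0.5 on the WT arrays. The probe was not above background on any array, so Mvk is not among the 5 genes tested. Fitted without the filter on dim probes, it had a log2 fold change of 0.05 ± 0.05 (SE, limma adjusted p = 0.717), which gives no measure of a transcript at background. Pmvk, phosphomevalonate kinase, which acts next and is not one of the 8 genes, had signals of 128.8, 167.9 and 115 in the knockout, against 119.7, 114.1 and 128.2 in WT. The ranges overlapped, with a log2 fold change of 0.15 ± 0.13 (SE, limma adjusted p = 0.466).

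Mvd, mevalonate diphosphate decarboxylase, makes isopentenyl diphosphate, the building block of all isoprenoids. Its probe had signals of 99.4, 88.3 and 93.8 on knockout arrays 1, 2 and 3, against 188.8, 163.3 and 265.8 on WT arrays 1, 2 and 3. No knockout value reached the lowest WT value, and the knockout arrays were closer together (mean 93.8 ± 5.55 in the knockout and 206 ± 53.4 in WT, SD, n = 3 each). Mvd fell by 0.99 on the log2 scale (SE 0.16, 95% interval -1.37 to -0.61, limma adjusted p = 0.00713). The call held without any 1 array (adjusted p up to 0.0312).

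Idi1, isopentenyl diphosphate isomerase, converts that building block into its reactive isomer dimethylallyl diphosphate. Its signals were 20.7, 19.2 and 27.3 on the knockout arrays, against 81.2, 114.1 and 186 on the WT arrays. All 3 knockout arrays were near the limit of detection (detection p of 0.0171, 0.016 and 0.00855), whereas the WT arrays were well above it and differed widely among themselves. Idi1 fell by 1.84 on the log2 scale (SE 0.24, 95% interval -2.40 to -1.27, limma adjusted p = 0.00305), and only 14 of the 11346 genes tested had a lower log2 fold change. The size depended on how background was treated. Mean deposited signals were 5.67-fold lower in the knockout. The log2 fold change was -2.44 on deposited intensity floored at 16, and -1.25 with an offset of 50 in place of 16. The call held without any 1 array (adjusted p up to 0.0188). Both probes of the related gene Idi2 were not above background on any array.

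Fdps, farnesyl diphosphate synthase, condenses these units into farnesyl diphosphate, from which the sterol and non-sterol branches part. Its brighter probe had signals of 1945.2, 2480.1 and 1870.3 in the knockout, against 2526.7, 2053.8 and 2893.4 in WT. These ranges overlapped, and the log2 fold change was -0.24 (SE 0.16, 95% interval -0.61 to 0.13, limma adjusted p = 0.321). Its dimmer probe had signals of 36.4, 29.3 and 36.5 in the knockout, against 56.1, 64.3 and 90.5 in WT, with no overlap. Tested among all 21958 probes above background, of which 9.27% were lower, the dimmer probe fell by 0.77 on the log2 scale (SE 0.15, limma adjusted p = 0.0136). The log2 fold changes of the 2 probes differed by 0.53, with an exact two-sided permutation p of 0.1, the smallest that 3 arrays against 3 allow (adjusted p = 0.5 over 5 pairs of probes). With the mean of both probes in place of the brighter one, Fdps passed at the gene level (log2 fold change -0.51, limma adjusted p = 0.0336), so its call rests on the probe.

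**Figure D2:**
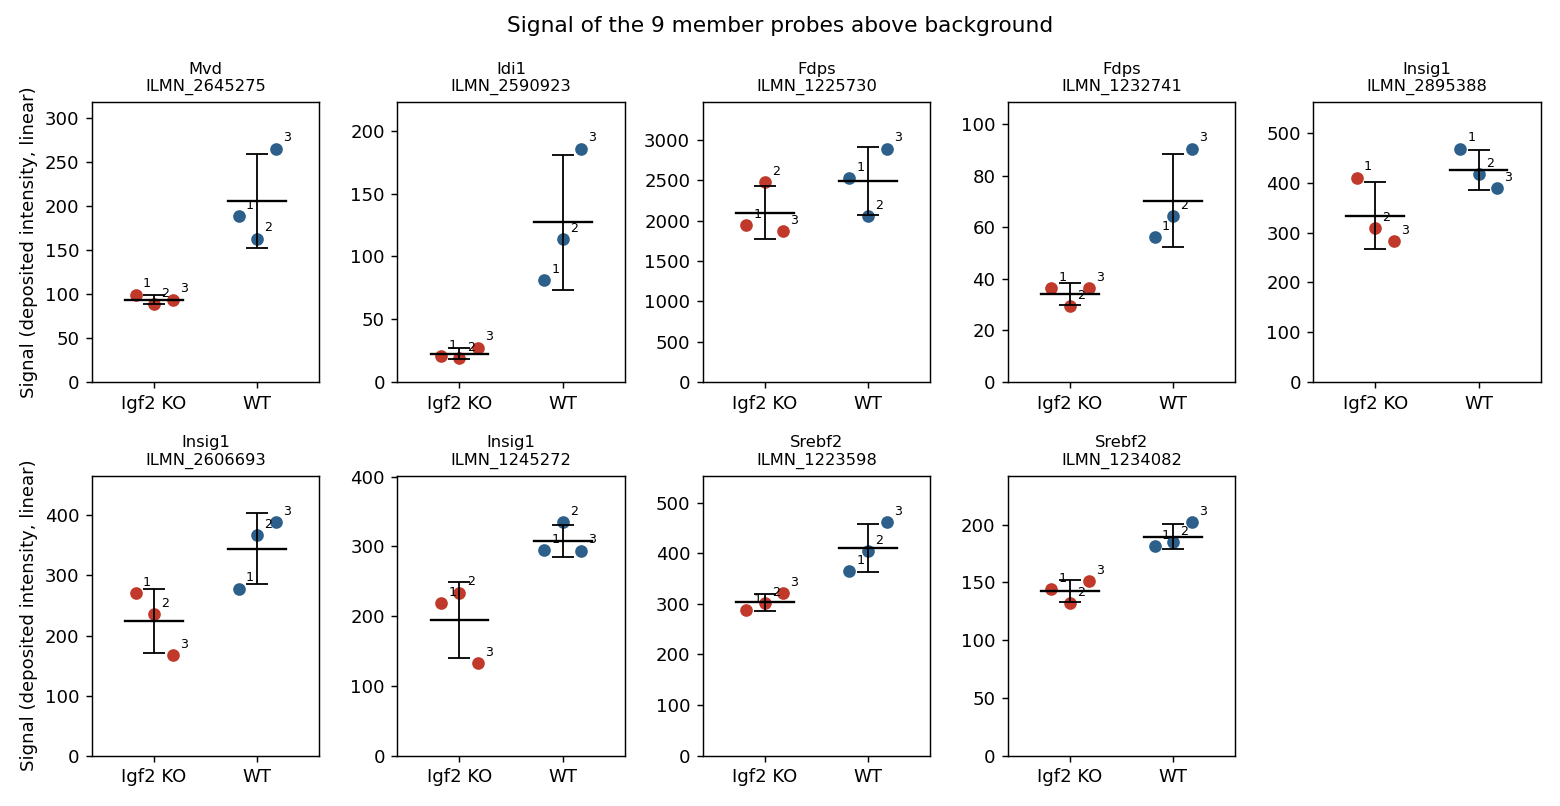
Deposited signal (linear scale, y axis from 0) of the 9 probes above background, with Igf2 KO arrays in red on the left and WT arrays in blue on the right of each panel. Numbers are replicate numbers, horizontal bars are means and error bars are SD (n = 3). Knockout and WT points are apart for Mvd, Idi1, the dimmer Fdps probe, 2 of 3 Insig1 probes and both Srebf2 probes, and overlap for the brighter Fdps probe and 1 Insig1 probe.

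Insig1 and Srebf2 belong to the control of the pathway. Srebf2 had signals of 287.4, 301.1 and 321.5 on its brighter probe in the knockout, against 365.3, 404.8 and 461.3 in WT. On its other probe the signals were 144.4, 132.2 and 151.4 in the knockout, against 181.6, 185.2 and 202.1 in WT. Neither probe overlapped between the groups. Srebf2 fell by 0.41 on the log2 scale (SE 0.11, 95% interval -0.66 to -0.16, limma adjusted p = 0.0387), and the other probe gave -0.38 ± 0.07 (SE, limma adjusted p = 0.0353 among all probes). The 2 probes differed by 0.04 in log2 fold change (exact permutation p = 0.7). The call of Srebf2 was lost without knockout array 1 (adjusted p = 0.133), 2 (0.0895) or 3 (0.0649), without WT array 2 (0.0812) or 3 (0.0696), and with Xist as a covariate (0.101). Its log2 fold change stayed between -0.49 and -0.33 when any 1 array was left out.

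Insig1, which retains Scap and SREBP-2 in the endoplasmic reticulum and is itself induced by SREBP-2, had 4 probes, of which 3 were above background. The brightest had signals of 410.5, 308.8 and 283.6 in the knockout, against 468.9, 417.9 and 388.7 in WT. Knockout array 1 lay within the WT range on this probe. The second had signals of 270.6, 235 and 166.9 in the knockout, against 278.2, 367.7 and 388.5 in WT, and the third 218.8, 233.7 and 132.6 in the knockout, against 295.3, 334.7 and 294 in WT. Both were without overlap, and knockout array 3 was the lowest array on all 3 probes. The brightest probe gave a log2 fold change of -0.35 (SE 0.15, 95% interval -0.69 to -0.005, limma adjusted p = 0.144). Tested among all probes, the other 2 gave -0.60 ± 0.20 (SE, limma adjusted p = 0.0658) and -0.65 ± 0.20 (SE, limma adjusted p = 0.053). Differences between the 3 probes in log2 fold change were 0.05 to 0.31 (exact permutation p of 0.3 to 0.8). The fourth probe was not above background on any array.

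Taking the 9 probes together, 5 were called lower and 0 higher among all probes tested (Mvd, Idi1, the dimmer Fdps probe and both Srebf2 probes), against 9.27% of all probes called lower. The knockout was lower without overlap on 7 of the 9 probes and on 19.7% of all probes. All 9 probes were above background on all 6 arrays, so none entered the test through WT alone. The arrays of a genotype differed in a way that many members shared. WT array 3 had the highest WT signal for 7 of the 9 probes, including Mvd, Idi1, both Fdps probes and both Srebf2 probes. It also had the highest WT signal for 9 of 12 genes tested between squalene and cholesterol. Over all genes tested this held for 39.9%. Idi1 on WT array 3 reached 146% of the WT mean, against 63.9% on WT array 1.

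The direction was then read in the subsets of arrays that the lung and Xist signals define. With knockout array 3 alone against all WT arrays, log2 differences were negative on all 9 probes, at -1.66 for Idi1, -0.99 for Mvd and -0.33 for the brighter Srebf2 probe. Among arrays with high Xist (knockout arrays 1 and 2 against WT array 1) the 3 values were -1.43, -0.90 and -0.30. Among arrays with low Xist (knockout array 3 against WT arrays 2 and 3) they were -1.91, -1.04 and -0.41. All 9 probes were negative in both subsets, which are too small for a test. In the fit without knockout arrays 1 and 2, which takes the spread of WT for the 1 knockout array left, 0 of the 5 genes passed, with limma adjusted p values of 0.101 for Idi1, 0.136 for Mvd and 0.38 for Srebf2. Over all genes that fit called 228, against 1897 with all arrays. With the lung markers as a covariate 0 of the 5 passed as well, and Idi1 had an adjusted p of 0.058. With Xist as a covariate Idi1 (adjusted p = 0.0071) and Mvd (0.026) passed.

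**Figure D3:**
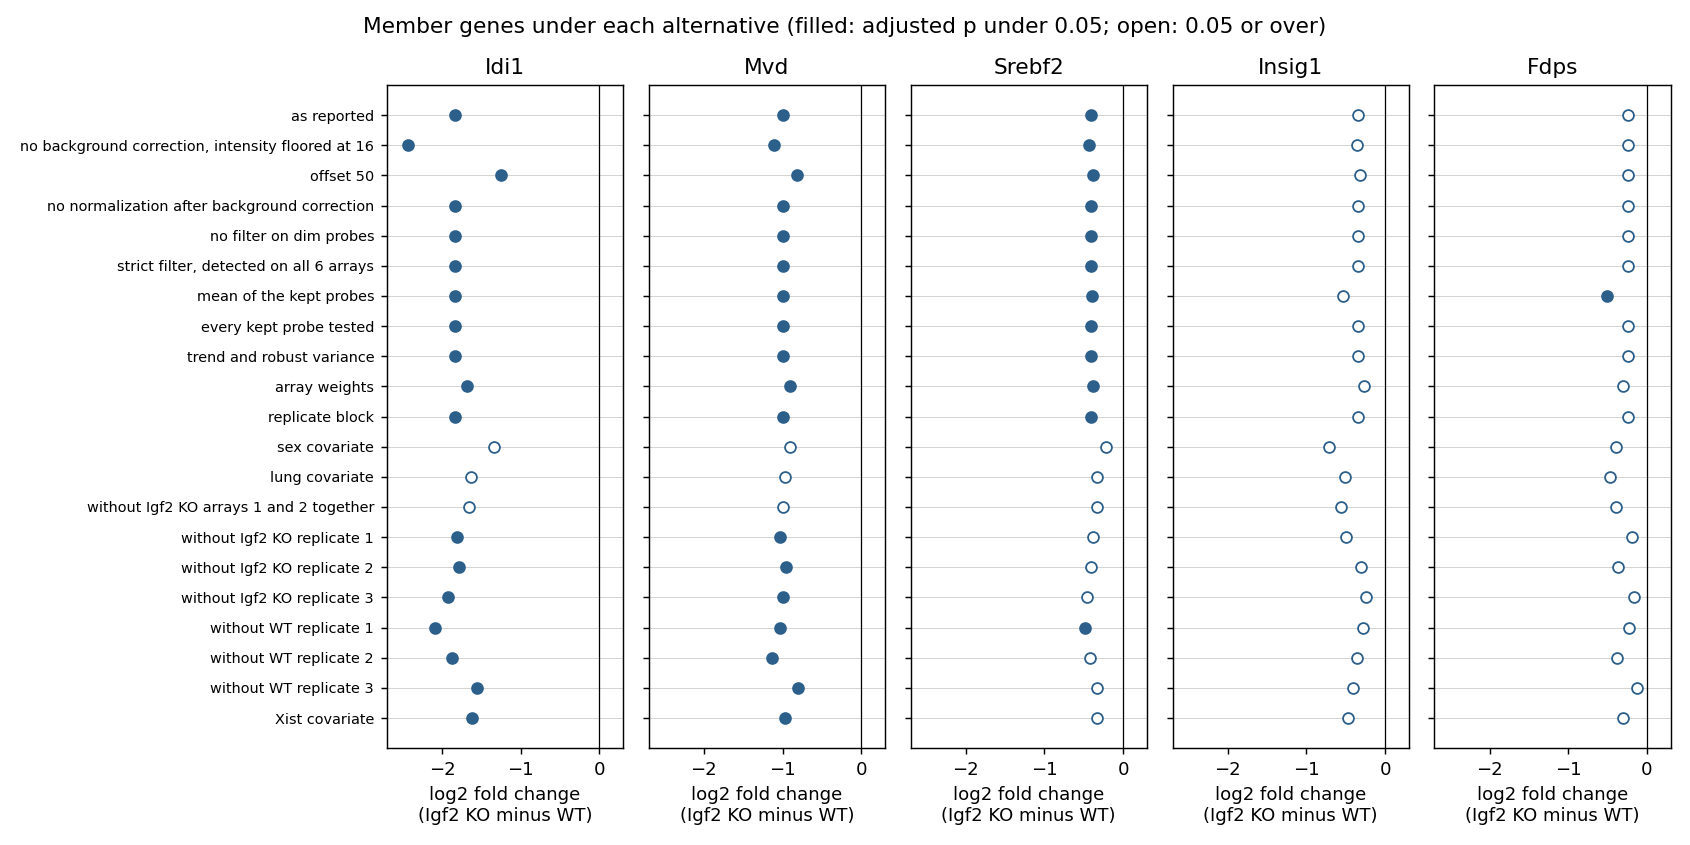
Log2 fold change (Igf2 KO minus WT, x axis) of the 5 genes tested, 1 panel per gene, with each way of processing the data as a row. Filled points have a limma adjusted p under 0.05 and open points do not. All points lie below 0, Idi1 and Mvd are open in 3 rows, and Insig1 is open in every row.

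Other genes of sterol metabolism were read from lists chosen by function. In sterol sensing and SREBP processing, 2 of 11 genes tested rose and 2 fell, with a median log2 fold change of -0.15. Insig2 encodes a second retention protein with the function of Insig1, and it was higher. Its signals were 4183.7, 4261.5 and 4176.2 on the knockout arrays, against 1280.1, 1602.6 and 1327.5 on the WT arrays. Insig2 rose by 1.58 on the log2 scale (SE 0.11, limma adjusted p = 0.000209), and its other 2 probes gave 1.55 and 2.74 (limma adjusted p = 0.00153 and 6.03e-05 among all probes). Insig2 passed in every alternative run, whereas the log2 fold change of Insig1 was below 0 in every alternative run. The 95% intervals of Insig1 (-0.69 to -0.005) and Insig2 (1.33 to 1.83) did not overlap.

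Srebf1, which encodes the related factor SREBP-1 of fatty acid synthesis, had signals of 22.2, 37.6 and 21.3 in the knockout, against 82.6, 50.9 and 53.2 in WT. It fell by 0.86 (SE 0.19, limma adjusted p = 0.0243), a call lost without knockout array 1 (adjusted p = 0.09) or 3 (0.0647), without WT array 1 (0.0655) and with the replicate block (0.0561). The Srebf1 call was also lost without the filter on dim probes (0.0508), with Y-linked genes as a covariate (0.107) and with lung markers as a covariate (0.0649). The other Srebf1 probe was not above background on any array. Spring1, which encodes a membrane protein needed for SREBP cleavage, rose by 0.77 (SE 0.11, limma adjusted p = 0.00426). Pgrmc1, a membrane protein that binds heme, fell by 0.49 (SE 0.09, limma adjusted p = 0.0132). Its call was lost without knockout array 1 (adjusted p = 0.0644), with Y-linked genes as a covariate (0.248) and with lung markers as a covariate (0.17). Scap had a log2 fold change of -0.21 ± 0.11 (SE, adjusted p = 0.22), and Mbtps1 and Mbtps2, which encode the proteases that release SREBP, had -0.33 ± 0.09 (adjusted p = 0.0508) and -0.15 ± 0.12 (adjusted p = 0.415). None of these 3 passed, but Mbtps1 did in 5 alternatives (adjusted p of 0.0195 to 0.0463), among them both other filters on dim probes.

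Other targets of SREBP-2 were mixed, with 1 of 6 genes higher, 2 lower and a median of 0.04. Stard4, a carrier of cholesterol between membranes, had signals of 1457.6, 1237.4 and 1581.3 in the knockout, against 2256.7, 2649.5 and 2370.2 in WT, and fell by 0.76 (SE 0.12, limma adjusted p = 0.00563). Tmem97, a sterol-regulated membrane protein, fell by 0.59 (SE 0.09, limma adjusted p = 0.00522). Acss2, which makes acetyl-CoA from acetate in the cytosol, rose by 0.77 (SE 0.14, limma adjusted p = 0.0123). With Y-linked genes as a covariate the calls of Stard4 (limma adjusted p = 0.213), Tmem97 (0.166) and Acss2 (0.271) were lost. They were also lost with lung markers as a covariate (0.11, 0.0958 and 0.193).

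Downstream, of 12 genes tested between squalene and cholesterol 6 fell and 1 rose, with a median of -0.29. The median was -0.49 with the mean of the kept probes, again with 6 lower and 1 higher. Sqle (-1.48 ± 0.12), Sc5d (-1.28 ± 0.12) and Msmo1 (-1.13 ± 0.12, all SE) had the smallest p-values. The 1 that rose was Ebp, a sterol isomerase (0.55 ± 0.09, SE, limma adjusted p = 0.0067). Its call was lost with Y-linked genes (limma adjusted p = 0.236) and with lung markers (0.134) as a covariate. Those of Sc5d (0.0577) and Msmo1 (0.0792) were lost with Y-linked genes as a covariate. In the list of LXR targets and sterol export, 3 of 8 genes rose and 2 fell, with a median of 0.16. Abcg5 and Abcg8, which together form a sterol exporter, rose by 3.29 (SE 0.51, limma adjusted p = 0.00552) and 3.39 (SE 0.43, limma adjusted p = 0.00253). Abcg5 had signals of 3224.3, 3660.5 and 3447.4 in the knockout, against 475.9, 631.7 and 122.3 in WT, and Abcg8 had 955.9, 1332.7 and 1239.8 in the knockout, against 111.6, 192.5 and 38.5 in WT. WT array 3 was the lowest on both, and without it the log2 fold changes were 2.61 and 2.86. Scd1, a fatty acid desaturase, rose by 1.85 (SE 0.27, limma adjusted p = 0.00451). Cyp7a1, the first enzyme of bile acid synthesis, fell by 1.55 (SE 0.23, limma adjusted p = 0.00466). With Y-linked genes as a covariate the calls of Abcg5 (limma adjusted p = 0.166), Abcg8 (0.0972), Scd1 (0.174) and Cyp7a1 (0.17) were lost. With lung markers as a covariate those of Abcg5 (0.0697), Scd1 (0.0665) and Cyp7a1 (0.084) were lost, and Abcg8 passed (0.0411). Lpcat3, an acyltransferase that puts polyunsaturated chains into phospholipids, fell by 0.35 (SE 0.09, limma adjusted p = 0.0378), a call lost without each array in turn (adjusted p of 0.0626 to 0.119). Of 17 genes for ubiquinone, dolichol and protein prenylation 3 rose and 0 fell, with a median of 0.07, log2 fold changes of -0.23 to 0.41 and 8 of 17 below 0. With the mean of the kept probes, Coq6, a hydroxylase of ubiquinone synthesis, was called lower (-0.36, limma adjusted p = 0.0294). The 3 were Coq7, a hydroxylase of ubiquinone synthesis (0.41 ± 0.09), Zmpste24, a protease that trims farnesylated prelamin (0.34 ± 0.09), and Fntb, a subunit of farnesyltransferase (0.31 ± 0.09; SE). All 3 calls were lost without knockout array 1 (adjusted p of 0.103 to 0.123). The call of Fntb was lost without each of the 6 arrays in turn, that of Zmpste24 without all but WT array 3, and that of Coq7 also without knockout array 3 or WT array 1 or 2 (adjusted p of 0.0522 to 0.127 over these), and the 2 other probes of Zmpste24 above background gave -0.09 and 0.13. Ggps1, which makes geranylgeranyl diphosphate, was not above background on any array. Without knockout arrays 1 and 2, which leaves 1 knockout array, 10 of the 12 genes from squalene to cholesterol were below 0, with a median of -0.29. In that fit the log2 fold changes were -1.44 for Sqle, -1.21 for Sc5d, -1.16 for Msmo1 and 0.46 for Ebp. They were 1.57 for Insig2, 3.29 for Abcg5, 3.47 for Abcg8, 1.44 for Scd1, -1.23 for Cyp7a1 and -0.32 for Lpcat3. Only sizes are given here, and they do not show that the calls held.

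**Figure D4:**
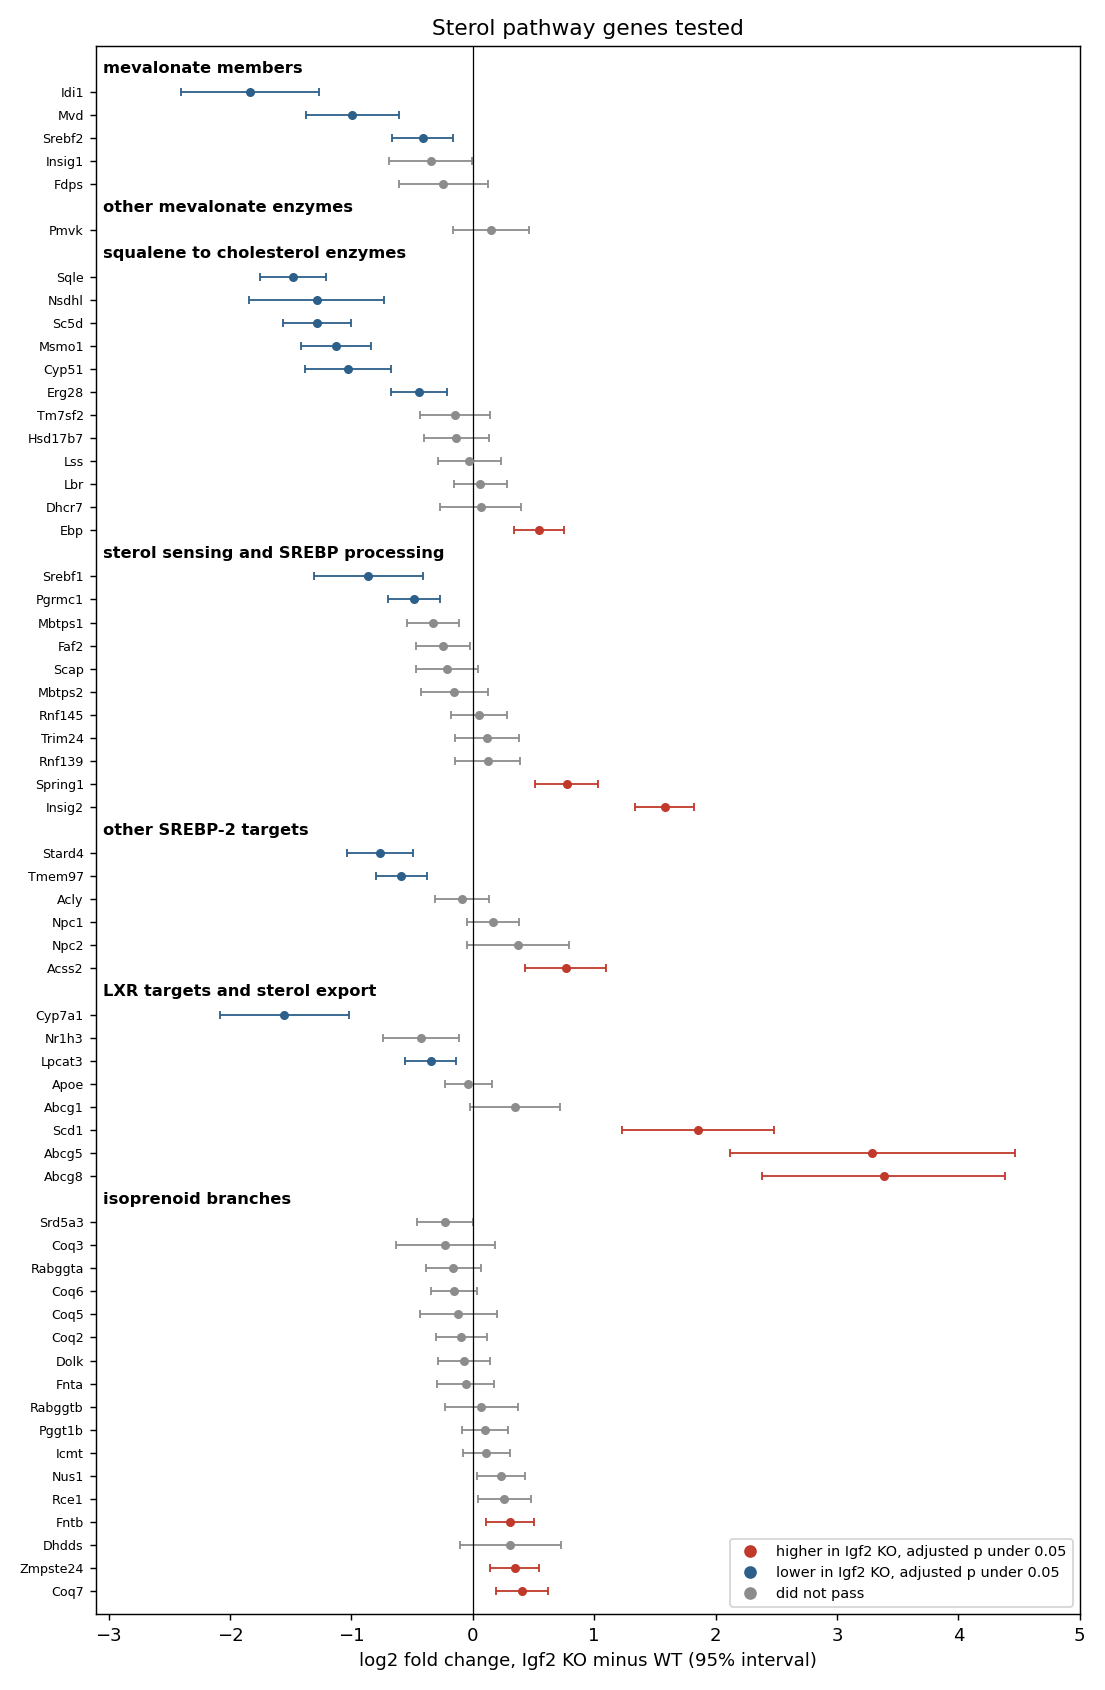
Log2 fold change (Igf2 KO minus WT, x axis) with its 95% interval for each gene tested in 7 lists of sterol metabolism, sorted within each list. Blue genes were lower and red genes higher in the knockout at a limma adjusted p under 0.05, and grey genes did not pass. Blue points gather among the mevalonate genes and the squalene to cholesterol genes, and Insig2 lies at 1.58. The non-sterol branches lie between -0.23 and 0.41, with 3 genes in red.

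The 3 genes outside the 8 whose array profile lay nearest to that of Idi1 were Krt20, Serinc2 and Inhba. Nearness was the root mean square distance between log2 intensities centred on each gene's mean, over the 6 arrays. The distances were 0.20, 0.28 and 0.29, and the genes had log2 fold changes of -1.73, -1.82 and -1.72. Krt20 encodes a keratin, Serinc2 a membrane protein and Inhba a subunit of activins.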

How the data were processed

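Total RNA of newborn liver was labelled as biotinylated cRNA and read on Illumina BeadChips, per the labels' protocols. The authors deposited probe intensity on a linear scale, with detection p-values in 1 of 2 deposited tables. Both hold the same intensity values, already background-subtracted and normalized between arrays: 25% to 25.1% of values per array lie below 0, and sorted values differ by at most 0.2. The software is not given in the sources used here. Rows were named by matching intensities, since probe IDs differ between the tables in 9535 of 45281 rows. Of the probes, 34885 had 1 symbol.

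Analysis used limma 3.58.1 in R 4.3.3: neqc with an offset of 16 and quantile normalization on the log2 scale, which makes fold changes of dim genes smaller. This test had been chosen for raw intensity and was not altered. A probe entered if its detection p was below 0.05 on 3 or more of the 6 arrays (21958 did), and each gene was read from its brightest kept probe (11346 genes). Groups were compared by lmFit and eBayes, two-sided, with Benjamini-Hochberg adjustment. The fit was tested on simulated data. Arrays detected 46.3% to 49.9% of probes, and their number limits the precision.

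Members and lists were chosen with earlier results of these data known. Named genes were Igf2, all members, up to 3 called genes per direction and list with the smallest p (or the gene of smallest p where none was called), and the 3 nearest to the member of largest change; Scap, Mbtps1, Mbtps2, Idi2 and Ggps1 were added for their roles. Alternatives covered background, offset, normalization, filter, probe choice, variance model, array weights, the replicate block, covariates and arrays left out.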

Additional observations from a re-analysis of the deposited data

How the results depend on the processing

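Directions of all 5 genes held in all 19 other settings and with Xist as a covariate, which was chosen after seeing the data. As reported, 1897 genes changed, 3 members and 12 other pathway genes were lower and 10 higher. The count of changed genes was 3025 with array weights, 170 with Y-linked genes as a covariate, 445 with lung markers as a covariate, 228 without knockout arrays 1 and 2, 1222 with Xist as a covariate and 849 to 1880 with 1 array left out. The Y-linked covariate itself separated the genotypes (7.01 to 7.58 in the knockout and 7.61 to 7.85 in WT). The lung covariate did so too (6.83 to 11.61 in the knockout and 6.35 to 6.43 in WT). With the Y-linked covariate, the lung covariate and without knockout arrays 1 and 2, in that order, 0, 0 and 0 members and 1, 1 and 1 member probes (of 5) were lower, other pathway genes were 2, 5 and 4 lower and 2, 3 and 2 higher, and log2 fold changes were -0.90, -0.96 and -0.99 for Mvd, -1.33, -1.63 and -1.66 for Idi1 and -0.22, -0.33 and -0.33 for Srebf2. Insig1 and Fdps, not called in any of these, were further below 0 there, at -0.71, -0.51 and -0.55 for Insig1 and -0.39, -0.47 and -0.40 for Fdps. Srebf2 also lost its call with Xist as a covariate (-0.33), and Fdps passed with the mean of its probes (-0.51). With 1 array left out, members lower were 2 to 3, member probes lower 3 to 4, other pathway genes lower 8 to 11 and higher 7 to 9, and log2 fold changes were -1.13 to -0.81 for Mvd, -2.08 to -1.55 for Idi1, -0.49 to -0.33 for Srebf2, -0.50 to -0.24 for Insig1 and -0.37 to -0.13 for Fdps. The cause of these losses was not tested. The fits that leave arrays out also hold fewer arrays, and the part of that in the losses was not tested either. Replicate numbers showed no pairing of the arrays (correlation of deviations -0.004, 0.028 and 0.015 for numbers 1, 2 and 3). Arrays of unlike number gave -0.108 to 0.108. With 3 arrays per group this cannot exclude a pairing. With the replicate block 1323 genes changed, 3 members were lower and Srebf2 had a limma adjusted p of 0.0477. Mvk was fitted only without the filter on dim probes (0.05).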

Other observations

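Some arrays carried Xist together with transcripts of the Y chromosome. On knockout arrays 1 and 2 and WT array 1, Xist had signals of 1984.2, 1822.5 and 1017.5, and Eif2s3y, a gene of the Y chromosome, had 684.9, 619.2 and 886.6. On knockout array 3 and WT arrays 2 and 3, Xist had 17.9, 4.1 and 5.4 and Eif2s3y 1054.7, 925.3 and 1084.5. Kdm5d, also of the Y chromosome, had 51.3, 66.2 and 79 on the knockout arrays and 97.8, 128.7 and 122.6 on the WT arrays. The labels give neither the sex nor the number of pups per array.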
